A study of Mus musculus with 24 samples.

Results

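The maturation of normal mouse quadriceps between 3 and 6 weeks of age was read from 6 of the 24 arrays of a time course. The members are the 3 arrays titled as control quadriceps at 6 weeks and the 3 titled as control quadriceps at 3 weeks, taken by label alone. The full course holds 8 groups of 3 arrays, from BL10 control mice and from mdx mice, which lack dystrophin, at 5 days, 2 weeks, 3 weeks and 6 weeks. Every mouse compared here is labelled genotype BL10, with no transgene, agent or treatment named. The titles call the 3 arrays of a group biological replicates. They do not say whether 1 array holds 1 animal, and sex is not labelled.

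Between weaning and young adulthood a mouse limb muscle grows mainly by enlarging fibres that already exist. Embryonic and neonatal forms of the contractile proteins have largely been replaced by adult forms, and fibres settle into slow-twitch and fast-twitch types. Fetal growth factors, many of them from imprinted genes, are switched off in the same weeks, growth hormone becomes the main drive of body growth, puberty starts, and the immune system populates its tissues.

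All levels are log2(intensity + 16) after quantile normalization, where 4 is the lowest possible value and stands for an intensity at or below 0. Array values are given in the order of replicates 1, 2 and 3. A difference is the 6-week mean minus the 3-week mean, with the standard error (SE) of a limma fit to all 24 arrays. A gene is called when its adjusted p lies under 0.05 (limma, Benjamini-Hochberg over 15000 genes). Each gene is read from its brightest probe set, and its dimmer ones do not enter the counts of calls. Because whole muscle was used, fewer cells of a type and less RNA per cell cannot be told apart.

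Dmd, which encodes dystrophin, checks the strain label. Its brightest probe set, 1448665_at, gave 8.88, 8.02 and 10.13 for the 3-week arrays, then 9.83, 10.25 and 10.10 for the older ones. Replicate 2 of 3 weeks was the lowest of the 6 and read as mdx arrays of the series do, replicate 1 lay between, and replicate 3 lay with the 6-week arrays. A further Dmd probe set, 1417307_at, gave 8.03, 7.59 and 9.66, then 9.41, 9.85 and 9.53. In both dimmer Dmd probe sets replicate 2 was not low: 1443315_at gave 6.37, 8.36 and 8.48, then 6.62, 6.52 and 7.16, and 1430320_at gave 4.91, 5.36 and 5.40, then 4.87, 4.86 and 4.97. The Dmd difference was 1.05 (SE 0.47, adjusted p = 0.191), and 0.55 (adjusted p = 0.535) without replicate 2. The count of calls is therefore given with all 3 arrays of 3 weeks and again without replicate 2, which stayed in its labelled group otherwise, and so are the genes the text turns on.

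That array stood apart in more than Dmd. Over all probe sets analysed it was most alike BL10 replicate 3 of 2 weeks (r = 0.975), and not an array of its own age. That trait was not its alone, since replicate 3 of 3 weeks was also most alike a 2-week array (mdx replicate 3, r = 0.973). Within 3 weeks, replicates 2 and 3 had the highest correlation (0.962). The neutrophil list averaged 7.68 in replicate 2, against 6.07 and 5.11 in replicates 1 and 3. Its S100a8 and S100a9, abundant neutrophil proteins, read 10.04 and 10.33, against 6.86 and 6.36 in replicate 1 and 4.86 and 4.61 in replicate 3. It also held the lowest adipocyte and tendon list means at 3 weeks (7.97 and 7.11) and the highest slow fibre mean (11.42). Whether the array belongs to another strain or age was not tested.

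The labelled tissue matched its defining markers. Myh4, the fastest myosin heavy chain, read between 13.75 and 13.88 in the 6 arrays, near the top of the scale. Xist probe set 1427262_at lay between 4 and 4.64 in the 6 arrays, and the Y-linked Eif2s3y between 9.43 and 9.70 in 5 of them. Replicate 1 of 3 weeks read 7.73 in Eif2s3y, and was also the lowest in the Y-linked Kdm5d (1424903_at, 6.80 against 7.14 to 7.62) and Uty (1426598_at, 6.86 against 7.37 to 8.06). The 3' minus 5' difference of the array's Gapdh control was -0.21, -0.22 and -0.18 at 3 weeks and 0.35, 0.23 and 0.41 at 6 weeks, so the ages did not overlap. The actin control ran from -0.20 to -0.16 at 3 weeks and from -0.31 to -0.27 at 6 weeks. Age and what moved these RNA-quality controls cannot be told apart. Correlations within 3 weeks ran from 0.946 to 0.962, below those within 6 weeks (0.966 to 0.976).

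Of 15000 genes tested, 976 were called between the ages, which is 6.51%. Higher at 6 weeks were 594 (3.96%), lower were 382 (2.55%), and the change reached 2-fold in 321. Counts of calls within each list below are to be read against these shares. An unadjusted p under 0.05 was found for 3400 genes (22.7%). Without replicate 2 of 3 weeks 633 genes were called (4.22%), 359 higher (2.39%) and 274 lower (1.83%), of which 514 were among the 976. The split depends on scaling: 60.9% of calls were higher after quantile normalization and 82.8% of 1639 after median centring, which moved the median difference of all genes from 0.04 to 0.15. Replicate 2 was not the only array on which the count rested. It fell to 532 without replicate 1 of 3 weeks, and to 578, 354 and 206 without replicates 1, 2 and 3 of 6 weeks.

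**Figure D1:**
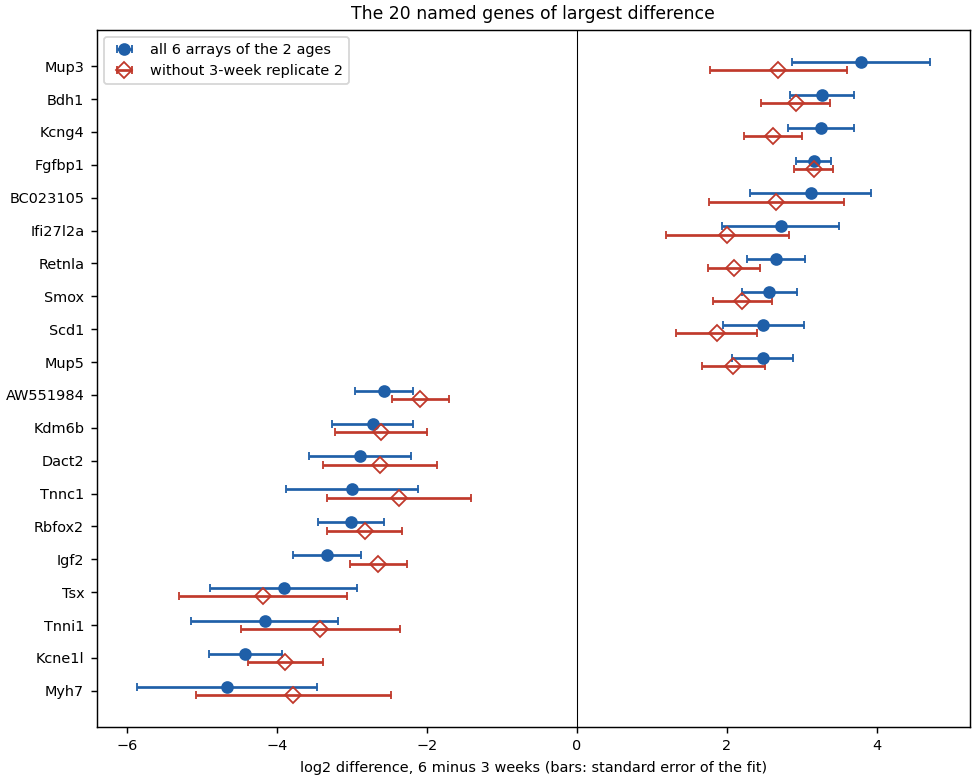
Each row is 1 of the 10 genes called with the largest rise or the 10 with the largest fall whose ages did not overlap; the horizontal axis is the log2 difference of 6 minus 3 weeks and bars are the SE of the fit. Filled circles use all 6 arrays and open diamonds leave out replicate 2 of 3 weeks, which moves Myh7 from -4.67 to -3.78 and leaves Fgfbp1 at 3.16.

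Several slow-twitch contractile genes fell. Slow fibres take up little of the quadriceps, and their proteins are also made by fetal and neonatal fibres. Of 13 slow fibre genes tested, 5 were lower at 6 weeks, where 2.55% of all genes were, and none was higher, with a median difference of -1.29 against 0.04 for all genes. Without replicate 2 of 3 weeks none of the 13 was called, and the median was -1.05. The list mean ran 10.36, 11.42 and 10.10 at 3 weeks and 9.76, 8.42 and 8.86 at 6 weeks, so the ages were apart while their arrays spread widely.

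Myh7, the slow myosin heavy chain, read 9.58, 11.69 and 8.42 at 3 weeks and 7.53, 4.14 and 4 at 6 weeks. At 6 weeks replicates 2 and 3 were at or near the floor of the scale and replicate 1 was not. The difference was -4.67 (SE 1.2, adjusted p = 0.0253), and -3.78 (adjusted p = 0.0957) without replicate 2 of 3 weeks. Tnni1, the slow inhibitory troponin, gave 9.43, 11.07 and 8.31, then 6.73, 4.90 and 4.71. It fell by 4.16 (SE 0.98, adjusted p = 0.0165), and the difference was -3.42 (adjusted p = 0.067) without that array. Tnnc1, the slow calcium-binding troponin, fell by 3.00 (SE 0.88, adjusted p = 0.0455), and lost its call in the same way (adjusted p = 0.155). Casq2, the slow-type calcium store protein calsequestrin, fell by 1.42, and Myoz2, a Z-disc protein of slow fibres, fell by 1.29. In each of these genes replicate 2 was the highest of the 3-week arrays, and their ages did not overlap. Tnnt1 and Myl2, the slow tropomyosin-binding troponin and the slow myosin light chain, had differences of -2.37 and -2.42 but were not called (adjusted p = 0.0844 and 0.148).

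The fast fibre list gave no call by the brightest probe set of each gene. Of 18 genes tested by limma none passed, 2 had an unadjusted p under 0.05, and the median difference was 0.02 (0.01 without replicate 2). Myh4 differed by -0.05 (SE 0.26), while its other probe set, dimmer at 12.32 and 10.33, differed by -1.99 (SE 0.48, adjusted p = 0.0165 over all probe sets), and Myh1 by 0.01 (SE 0.29). These genes lie near the upper end of the intensity range, where an array can compress differences; that was not tested. Of 15 developmental muscle genes 1 was called, Igf2bp3, an RNA-binding protein of fetal tissue, which fell by 0.59 (SE 0.15, adjusted p = 0.0274), and by 0.65 (adjusted p = 0.0391) without replicate 2. None of its 5 other probe sets was called, and the mean of its probe sets gave -0.05 (adjusted p = 0.843). The list's median was -0.94 with all arrays and -0.38 without replicate 2. Myh3, the embryonic myosin heavy chain, read 7.14, 9.63 and 7.16, then 6.15, 6.02 and 6.13. Its difference of -1.87 was not called (adjusted p = 0.0872) and shrank to -1.05 (adjusted p = 0.344) without replicate 2. Sln, the calcium pump inhibitor sarcolipin, had differences of -2.49 (adjusted p = 0.0666) and -1.44 (adjusted p = 0.279).

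**Figure D2:**
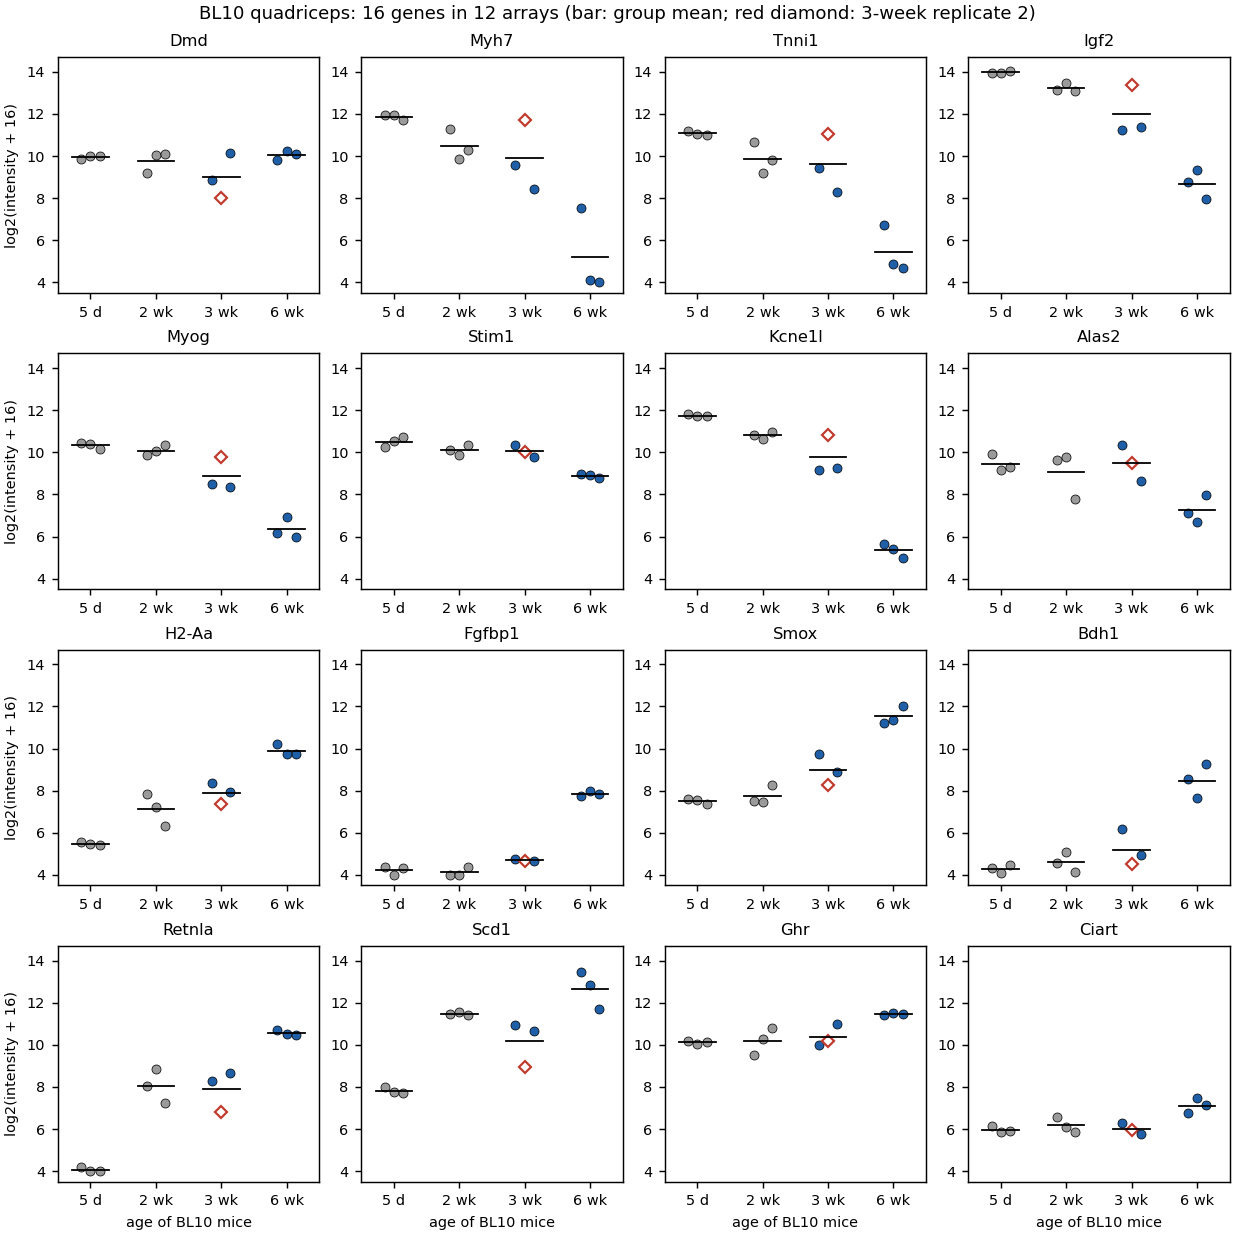
Each panel shows 1 gene in the 12 BL10 arrays, with age on the horizontal axis and log2(intensity + 16) on the vertical axis; bars are group means and the red diamond is replicate 2 of 3 weeks. The diamond lies above the other 3-week points in Myh7, Tnni1, Igf2, Myog and Kcne1l, lies below them in Dmd, H2-Aa, Smox, Bdh1, Retnla and Scd1, and coincides with them in Fgfbp1 at 4.68.

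The fetal growth factor Igf2 fell and the growth hormone receptor rose. Igf2 read 11.26, 13.37 and 11.39 at 3 weeks and 8.76, 9.32 and 7.97 at 6 weeks. Every 6-week array lay below every 3-week array, and replicate 2 was again the highest at 3 weeks. Igf2 fell by 3.33 (SE 0.45, adjusted p = 0.000323), and the difference was -2.65 (adjusted p = 0.0016) without replicate 2. Grb10, an imprinted adaptor that restrains insulin and IGF receptors, fell by 1.04 (SE 0.20, adjusted p = 0.0044), and by 0.81 (adjusted p = 0.0265) without it. Dlk1, an imprinted membrane protein of precursor cells, fell by 2.56 (SE 0.71, adjusted p = 0.0361). Its 3-week arrays read 7.70, 10.60 and 7.07, and without replicate 2 the difference was -1.49 (adjusted p = 0.162). Ghr, the growth hormone receptor, read 9.98, 10.18 and 10.98, then 11.43, 11.53 and 11.46. It rose by 1.09 (SE 0.29, adjusted p = 0.0287), and by 0.99 without replicate 2, where the call was lost (adjusted p = 0.0824).

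In the whole list of 23 IGF and imprinted growth genes, 3 were lower, where 2.55% of all genes were. In it 1 was higher, where 3.96% of all genes were, and the median was -0.16. Without replicate 2 there were 2 lower and none higher. Igf1, the growth hormone target that carries postnatal growth, differed by 0.28 (SE 0.27, adjusted p = 0.586). The imprinted genes Mest and Meg3 had differences of -1.77 and -1.32 with all arrays and of -0.98 and -0.25 without replicate 2, in which they read 10.47 and 13.70.

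Both best known regulators of muscle precursors fell. Myog encodes myogenin, which drives myoblasts into fusion, and Myod1 encodes the commitment factor MyoD. Of 21 myogenic and satellite cell genes tested only these 2 were called, both lower at 6 weeks, where 2.55% of all genes were. Both were also called without replicate 2. The 250 bases before the Myog start site are shown because a MEF2 site close to the start is a textbook element of this promoter. The sequence is RefSeq's, build GRCm38.p6, chr1:134289754-134290003, plus strand, with the letters CTATATTTA in capitals, which lie 64 bases before the start.

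Myog promoter: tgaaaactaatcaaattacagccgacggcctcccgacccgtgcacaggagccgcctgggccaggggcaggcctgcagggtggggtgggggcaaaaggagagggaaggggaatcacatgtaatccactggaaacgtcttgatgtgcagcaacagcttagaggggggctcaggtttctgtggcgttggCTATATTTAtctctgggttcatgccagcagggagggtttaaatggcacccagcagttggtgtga

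The same letters, searched on both strands, occur in 0.186% of 32851 mouse promoters of this length. Myog read 8.52, 9.77 and 8.35 at 3 weeks and 6.16, 6.93 and 5.97 at 6 weeks, without overlap. It fell by 2.53 (SE 0.38, adjusted p = 0.000752), and by 2.08 (adjusted p = 0.00671) without replicate 2. Myod1 read 8.89, 9.12 and 8.49, then 7.37, 7.47 and 7.43. The 6-week arrays of Myod1 were nearly level, and the difference was -1.41 (SE 0.21, adjusted p = 0.000748), or -1.27 (adjusted p = 0.00704) without replicate 2. Mymk and Mymx, the membrane proteins that fuse myoblasts, had differences of -1.07 and -1.17 and were not called.

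Stim1 and Orai1, the sensor and the channel of store-operated calcium entry, fell as well. Stim1, the sensor of calcium in the sarcoplasmic reticulum, read 10.34, 10.02 and 9.80, then 8.96, 8.92 and 8.79. Stim1 fell by 1.16 (SE 0.18, adjusted p = 0.000752), and did not rest on replicate 2, the difference being -1.18 (adjusted p = 0.00466) without it. A further Stim1 probe set was called in the same direction. Orai1, the plasma membrane channel that Stim1 opens, read 9.97, 9.62 and 9.20, then 8.67, 8.71 and 8.74. It fell by 0.89 (SE 0.25, adjusted p = 0.0404), but without replicate 2 the difference of -0.88 was not called (adjusted p = 0.0841), and its other probe set differed by -0.05 and was not called. Of 21 calcium handling genes 3 were lower, where 2.55% of all genes were, and none higher. The third was Casq2, and the list's median was -0.07.

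At the neuromuscular junction, 2 of 15 genes were called, both lower, where 2.55% of all genes were, with a list median of -0.34. Chrnb1, an acetylcholine receptor subunit, fell by 0.87 (SE 0.25, adjusted p = 0.044), and Dok7, which activates the receptor-clustering kinase MuSK, fell by 0.64 (SE 0.17, adjusted p = 0.0335). Neither was called without replicate 2 (adjusted p = 0.169 and 0.0548). Nos1, the neuronal nitric oxide synthase anchored by the dystrophin complex, rose by 0.98 (SE 0.27, adjusted p = 0.032), and by 0.83 (adjusted p = 0.106) without replicate 2. By brightest probe sets it was the only called gene of 13 in that complex, and its call was lost with the mean of probe sets. A dimmer Nos1 probe set was also called higher (1.57). Dimmer probe sets of Dag1 (-0.79, -0.74 and -0.60), Sgcb (-0.77), Sspn (-1.78), Utrn (-0.77) and Dtna were called lower. Kcne1l, a potassium channel subunit, was lower at 6 weeks, and was called without replicate 2 too (-3.89, adjusted p = 0.000841). It read 9.18, 10.84 and 9.27 at 3 weeks and 5.66, 5.39 and 4.98 at 6 weeks, a difference of -4.42 (SE 0.49, adjusted p = 8.53e-05). Kcng4, a modifier subunit of voltage-gated potassium channels, moved the other way, from 7.16, 4.81 and 6.26 to 9.08, 9.09 and 9.82. Its rise was 3.26 (SE 0.44, adjusted p = 0.000323), and 2.62 (adjusted p = 0.00176) without replicate 2.

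Genes of major histocompatibility complex class II, which displays peptides to helper T cells, rose together. The called members of the antigen presentation list were H2-Aa, H2-Ab1, H2-Eb1 and Cd74, the first 3 being class II chains and Cd74 their chaperone. That makes 4 of 16 genes tested, where 3.96% of all genes were higher, with none lower and a median of 0.74. Without replicate 2 there were 3 of 16, with a median of 0.68. Class II promoters share a Y box, the inverted CCAAT element bound by the factor NF-Y, and the 250 bases before the start are shown for both chains that RefSeq's promoter table (GRCm38.p6) held. The letters CTGATTGG are in capitals.

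H2-Aa promoter, chr17:34287824-34288073, minus strand: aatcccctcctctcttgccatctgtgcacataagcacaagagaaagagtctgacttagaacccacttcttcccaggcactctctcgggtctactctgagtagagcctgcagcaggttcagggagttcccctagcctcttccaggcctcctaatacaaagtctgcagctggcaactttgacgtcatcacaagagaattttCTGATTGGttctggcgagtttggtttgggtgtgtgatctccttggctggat
H2-Eb1 promoter, chr17:34305617-34305866, plus strand: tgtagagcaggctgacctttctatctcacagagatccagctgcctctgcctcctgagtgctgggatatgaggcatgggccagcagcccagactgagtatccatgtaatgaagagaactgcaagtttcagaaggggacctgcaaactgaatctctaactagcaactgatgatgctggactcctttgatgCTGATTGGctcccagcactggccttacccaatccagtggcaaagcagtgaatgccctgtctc

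The match lies 51 bases before the start in H2-Aa and 62 in H2-Eb1. On either strand the same letters occur in 3.83% of the 32851 promoters. H2-Aa read 8.36, 7.38 and 7.92 at 3 weeks and 10.23, 9.73 and 9.72 at 6 weeks. H2-Aa rose by 2.01 (SE 0.34, adjusted p = 0.00244), and by 1.75 (adjusted p = 0.0143) without replicate 2, the lowest of the 3-week arrays. H2-Ab1 rose by 1.62 (SE 0.28, adjusted p = 0.00244) and Cd74 by 1.62 (SE 0.31, adjusted p = 0.00476), both called without replicate 2 too. H2-Eb1 rose by 1.76 (SE 0.39, adjusted p = 0.0125), and was not called without it (adjusted p = 0.0558). Ciita, the coactivator that switches these genes on, differed by -0.16 (SE 0.31). The class I genes H2-K1 and B2m had differences of 1.37 and 0.62 and were not called.

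Several other immune genes moved in the same direction, mostly one by one. In the macrophage list 2 of 29 genes were higher, Folr2 and F13a1, which mark resident tissue macrophages. That share is near the 3.96% of all genes. They rose by 0.89 (SE 0.26, adjusted p = 0.0409) and 0.82 (SE 0.23, adjusted p = 0.0384). The list median was 0.58 with and without replicate 2, but neither gene was called without it (adjusted p = 0.141 and 0.0712). The list mean was 7.30, 7.27 and 6.86 at 3 weeks and 7.62, 7.67 and 7.69 at 6 weeks. Retnla, a secreted protein of alternatively activated macrophages and fat, rose by 2.66 (SE 0.39, adjusted p = 0.000567) from 8.27, 6.81 and 8.67 to 10.70, 10.53 and 10.47. Without replicate 2 the rise was 2.10 (adjusted p = 0.00314). Ighm, the immunoglobulin mu heavy chain, rose by 1.67 (SE 0.40, adjusted p = 0.0186), and was not called without replicate 2 (adjusted p = 0.0821). It was the only called gene of 12 for lymphocytes. None of the 6 other Ighm probe sets was called, and the call was lost with the mean of probe sets.

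Among 21 interferon response genes 1 was called, Ifih1, a sensor of double-stranded RNA, which rose by 1.18 (SE 0.34, adjusted p = 0.043). Its call was lost without replicate 2 (adjusted p = 0.0807), although the 3-week arrays were close together at 5.94, 6.11 and 6.16 and the 6-week arrays read 7.13, 7.38 and 7.23. The list's median was 0.62, and 0.54 without replicate 2. In 14 of the 21 genes the 6-week arrays all lay above the 3-week ones, as they did in 2400 of all 15000 genes; in either direction the ages did not overlap in 27.6% of all genes. In the complement list 3 of 13 genes were higher, where 3.96% of all genes were. Cd55, which shields cells from complement, read 6.75, 7.42 and 7.24, then 8.61, 8.75 and 8.98. It rose by 1.64 (SE 0.23, adjusted p = 0.000397), and by 1.79 (adjusted p = 0.00122) without replicate 2. Cfb, a protease of the alternative pathway, and C5ar1, a receptor of the complement fragment C5a, rose by 1.43 and 1.17 with all arrays. Neither was called without replicate 2 (adjusted p = 0.074 and 0.0613).

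No neutrophil gene was called by limma among 11, and none had an unadjusted p under 0.05 (median -0.95, and -0.31 without replicate 2). S100a9 read 6.36, 10.33 and 4.61 at 3 weeks and 5.28, 5.09 and 4.42 at 6 weeks, so its spread lay almost wholly within 3 weeks. Fibro-adipogenic progenitors, the connective tissue stem cells of muscle, had 4 of 16 genes higher, where 3.96% of all genes were, and none lower. They were Cxcl14, a chemokine, which rose by 1.78 (SE 0.41), Dpp4, a surface peptidase, by 0.94 (SE 0.25), Gsn, the actin-severing gelsolin, by 0.94 (SE 0.24), and Dpt, the matrix protein dermatopontin, by 0.55 (SE 0.16). Only Dpp4 was called without replicate 2 (1.08, adjusted p = 0.0346). The list's median was 0.32, and 4 of its 16 differences were below 0. The 16 fibrillar and basement collagens had no call by limma, 1 unadjusted p under 0.05 and a median of 0.03. Acta2, the actin of smooth muscle, fell by 0.49 (SE 0.11, adjusted p = 0.0111), and Eng, an endothelial coreceptor, by 0.82 (SE 0.22, adjusted p = 0.0313). Without replicate 2 Acta2 was still called (-0.49, adjusted p = 0.0329) and Eng was not (-0.76, adjusted p = 0.084). Each was the only called gene of its list, of 14 pericyte and smooth muscle genes and 18 endothelial genes. The adipocyte, Schwann cell, tendon and mast cell lists had no call by limma, and 0 of 15, 0 of 12, 2 of 16 and 1 of 8 genes with an unadjusted p under 0.05.

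**Figure D3:**
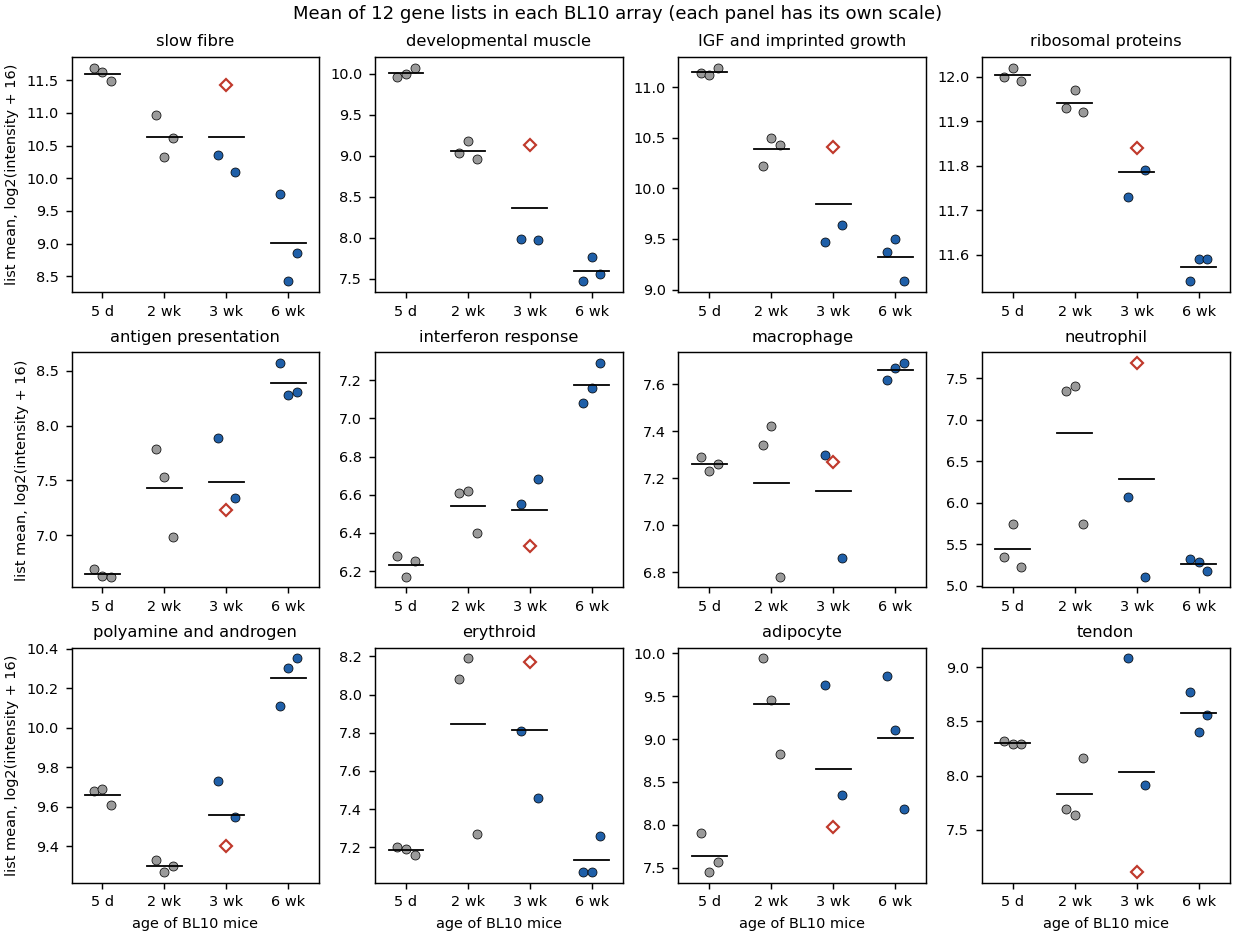
Each point is the mean of a list's tested genes in 1 BL10 array, with age on the horizontal axis and log2(intensity + 16) on the vertical axis, scaled per panel; bars are group means and the red diamond is replicate 2 of 3 weeks. That array has the highest slow fibre (11.42) and neutrophil (7.68) means and the lowest tendon mean (7.11) of the 3-week arrays, while the ribosomal protein means of all 3-week arrays lie above those of 6 weeks.

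Of 10 polyamine and androgen-responsive genes 2 were called, Smox and Mylk4, both higher, where 3.96% of all genes were. Smox, the spermine oxidase, which androgens raise in muscle, read 9.73, 8.25 and 8.90 at 3 weeks and 11.23, 11.34 and 12.02 at 6 weeks. Smox rose by 2.57 (SE 0.37, adjusted p = 0.000567), and by 2.21 (adjusted p = 0.00572) without replicate 2. Mylk4, a myosin light chain kinase, rose by 1.73 (SE 0.43, adjusted p = 0.0226), and lost its call without replicate 2 (1.37, adjusted p = 0.0894). The list's median was 0.48. A further Smox probe set was called higher too, while a dimmer probe set of Azin1 was called lower (-2.62). The brightest Azin1 probe set differed by 0.37. The major urinary protein genes Mup3 and Mup5, chiefly known from male liver, also rose. Mup3 read 7.01, 4.18 and 7.95, then 10.24, 10.28 and 9.99, a rise of 3.79 (SE 0.92, adjusted p = 0.02), which was 2.69 (adjusted p = 0.0895) without replicate 2. Mup5 rose by 2.48 (SE 0.41, adjusted p = 0.00179), and by 2.09 (adjusted p = 0.0123). The Mup genes are near-identical copies, so a probe set may read more than 1 of them.

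Fgfbp1 had the smallest p of all genes tested. It encodes a carrier that releases fibroblast growth factors from the matrix. The 3-week arrays read 4.77, 4.68 and 4.65, near the floor, and the 6-week arrays 7.74, 8.0 and 7.86. The rise was 3.16 (SE 0.23, adjusted p = 8.45e-08), and 3.16 again without replicate 2. Since the added constant of 16 compresses dim values, the fold on the intensity scale is understated.

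Among metabolic genes the changes were single. Bdh1, which converts the ketone body hydroxybutyrate, read 6.19, 4.50 and 4.93, then 8.55, 7.63 and 9.25. It rose by 3.27 (SE 0.43, adjusted p = 0.000323), and by 2.92 (adjusted p = 0.00282) without replicate 2, and its further probe set was called the same way. Scd1, the desaturase that makes monounsaturated fatty acids, rose by 2.49 (SE 0.54, adjusted p = 0.0112) from 10.93, 8.93 and 10.66 to 13.45, 12.84 and 11.71. It missed the threshold without replicate 2 (1.87, adjusted p = 0.0533), and its further probe set was not called. The adipocyte list mean moved across the same arrays, at 9.63, 7.97 and 8.35 at 3 weeks and 9.74, 9.11 and 8.19 at 6 weeks, and its part in Scd1 was not tested. Dhcr7, the last enzyme of cholesterol synthesis, rose by 0.97 (SE 0.24, adjusted p = 0.0199), with and without replicate 2. Scd1 and Dhcr7 were the 2 called of 19 lipid and cholesterol synthesis genes, where 3.96% of all genes were higher. The list's median was 0.62, and 0.35 without replicate 2.

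The lists of energy metabolism held few calls. None of 19 glycolysis and glycogen genes (median 0.17) and none of 21 fatty acid oxidation genes (median -0.14) was called by limma on brightest probe sets. Each of these lists had 3 unadjusted p under 0.05. A dimmer probe set each of Gys1 (-2.24) and Gpd1 (-1.63) was called lower over all probe sets, and a dimmer one of Atp5g1 (0.99) higher. The brightest probe sets of Gys1 and Gpd1 differed by 0.17 and 0.14. Of 31 respiratory chain genes 1 was called, Sdhc, a membrane anchor of succinate dehydrogenase, which fell by 0.83 (SE 0.22, adjusted p = 0.0313), and by 0.94 (adjusted p = 0.0379) without replicate 2. Pdk4, which holds pyruvate out of the mitochondrion in fasting, read 11.24, 12.75 and 9.66, then 12.83, 12.92 and 12.88. It was not called with all arrays (1.66, adjusted p = 0.12) but was called without replicate 2 (2.43, adjusted p = 0.0353).

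The circadian list had 4 of 20 genes higher, where 3.96% of all genes were, and none lower, with a median of 0.35; without replicate 2 it was 1 of 20. They were Ciart, Bhlhe41, Nr1d2 and Hlf, repressors and output factors of the clock. The time of day at dissection is not labelled. The Ciart promoter is shown because it holds the clock element CACGTG, the E-box, more often than once. It comes from RefSeq, build GRCm38.p6, chr3:95882229-95882478, minus strand, with each match in capitals.

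Ciart promoter: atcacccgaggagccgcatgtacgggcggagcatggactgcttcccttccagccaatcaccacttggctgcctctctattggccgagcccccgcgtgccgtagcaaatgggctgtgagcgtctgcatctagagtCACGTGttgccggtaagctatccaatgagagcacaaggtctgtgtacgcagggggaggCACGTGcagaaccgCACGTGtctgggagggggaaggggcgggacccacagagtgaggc

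The 3 matches lie 116, 58 and 44 bases before the start. The Bhlhe41 promoter holds 1, at 153 bases, those of Hlf and Nr1d2 hold none, and 6.02% of the 32851 promoters hold the letters on either strand. Ciart read 6.27, 5.94 and 5.78, then 6.75, 7.47 and 7.12. It rose by 1.12 (SE 0.21, adjusted p = 0.00473), and by 1.09 (adjusted p = 0.0187) without replicate 2. Bhlhe41, Hlf and Nr1d2 rose by 1.10, 0.93 and 0.92, and none of these 3 was called without replicate 2 (adjusted p = 0.113, 0.0714 and 0.0599). Per2 and Arntl, a repressor and an activator of the clock, had differences of -0.87 and -0.56 and were not called by their brightest probe sets. Their dimmer probe sets were called, Per2 in the opposite direction (1.0, adjusted p = 0.0279) and Arntl in the same one (-0.87, adjusted p = 0.019).

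Some genes of red cell formation and of ribosomes were lower at 6 weeks. Of 9 erythroid genes 3 fell, where 2.55% of all genes did, with a list median of -0.55 (-0.36 without replicate 2). Alas2, the first enzyme of haem synthesis in red cell precursors, read 10.33, 9.48 and 8.64, then 7.11, 6.67 and 7.96, a difference of -2.23 (SE 0.55, adjusted p = 0.021). Klf1, the erythroid transcription factor, fell by 0.77 (SE 0.19, adjusted p = 0.02), and Hbb-b2, an adult beta globin, by 0.53 (SE 0.16, adjusted p = 0.045). Alas2 and Klf1 were called without replicate 2 as well. Of 18 ribosomal protein genes tested 5 fell, where 2.55% of all genes did. They were Rpl8, Rpl6, Rps15, Rps3 and Rplp0, with differences from -0.42 to -0.27. Those were small, and 1 of the 5, Rps3, was called without replicate 2 (-0.35, adjusted p = 0.0371). Rpl8, Rpl6, Rps15 and Rps3 also lost their call with median centring and when the deposited values were not normalized further, which left differences from -0.32 to -0.17. The list's mean ran from 11.73 to 11.84 at 3 weeks and from 11.54 to 11.59 at 6 weeks.

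Of 30 cell cycle genes 1 was called, Mcm3, a subunit of the replicative helicase, which fell by 0.74 (SE 0.16, adjusted p = 0.00911), and by 0.92 without replicate 2. None of the 4 other Mcm3 probe sets was called, and the call was lost with the mean of probe sets. The list's mean was 6.33, 7.19 and 6.18 at 3 weeks and between 6.16 and 6.32 at 6 weeks. Replicate 2 alone stood above the rest, and the median difference went from -0.34 to -0.04 without it. Other single calls were Cdkn1a, the cell cycle inhibitor p21, which fell by 1.54 (SE 0.45, adjusted p = 0.0433), Fbn2, the fetal fibrillin, which fell by 1.06 (SE 0.31, adjusted p = 0.0433), and Mmp14, a membrane-bound collagenase, which fell by 1.42 (SE 0.42, adjusted p = 0.0481). Adamts5, a proteoglycan-cleaving protease, rose by 1.14 (SE 0.24, adjusted p = 0.0104), and of these 4 it alone was called without replicate 2. Smad3, a transducer of TGF-beta, rose by 0.78 (SE 0.23, adjusted p = 0.044), though the mean of its probe sets gave -0.13 and it was not called without replicate 2 (0.64, adjusted p = 0.139). Nqo1 and Aox1, enzymes that handle quinones and aldehydes, rose by 1.19 and 0.95 and were not called without replicate 2. Heat shock genes had no call by limma among the brightest probe sets of 18 genes, 5 of which had an unadjusted p under 0.05. Dimmer probe sets of Hspb7 (-3.37 and -1.64), Hspb8 (-1.04), Hsp90aa1 (-1.40) and Dnajb1 (-0.86) were called lower. A dimmer probe set of Cryab was called higher (0.49). Hspa1b read 10.05 in replicate 1 of 6 weeks against 7.96 and 8.18.

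**Figure D4:**
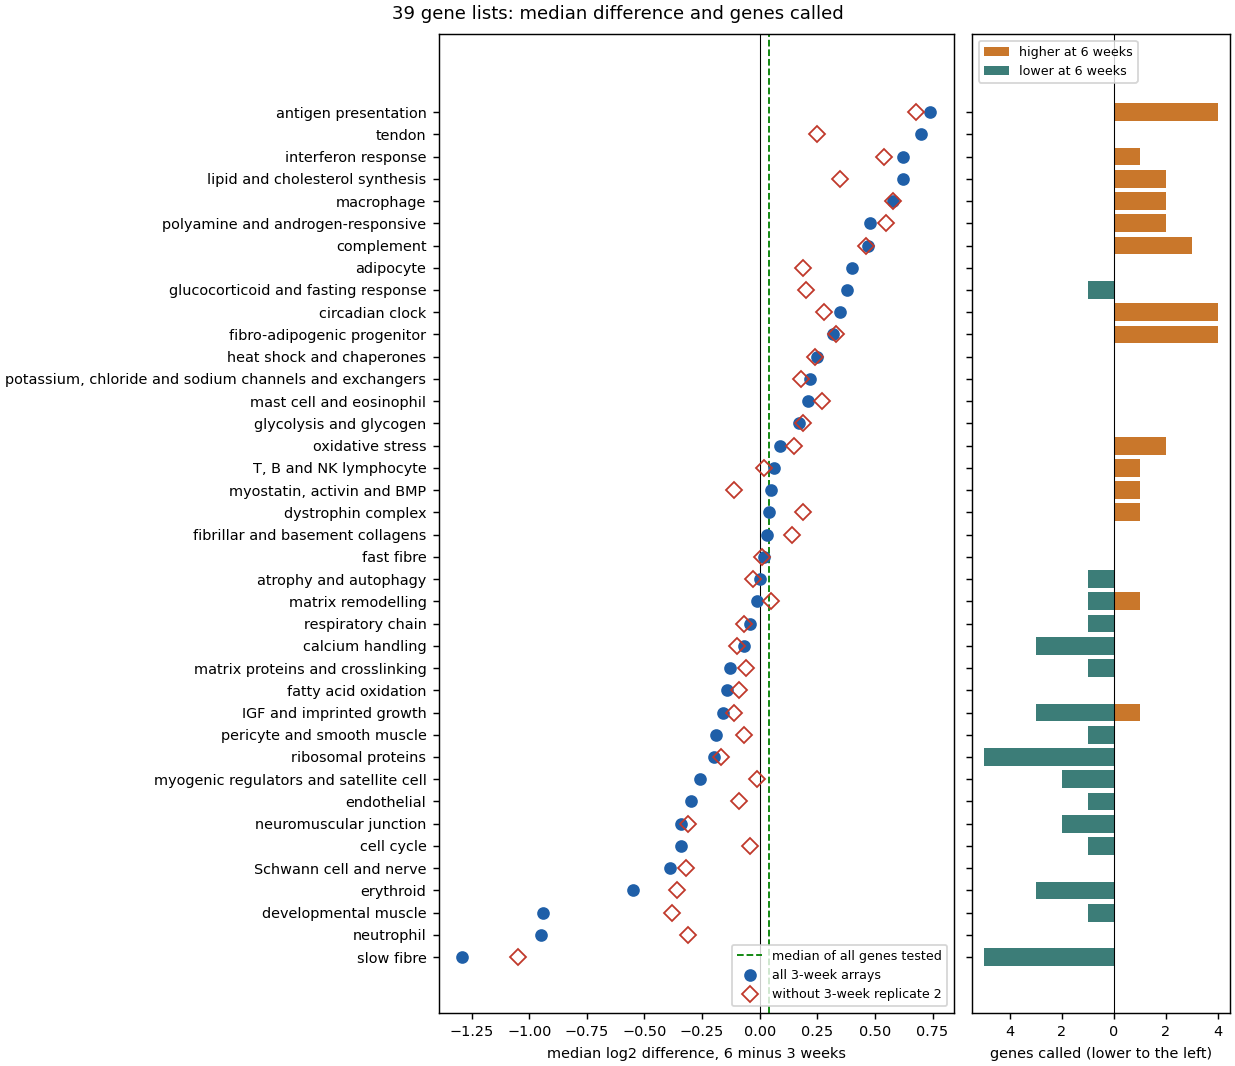
The left panel plots the median log2 difference of 6 minus 3 weeks for 39 gene lists, with all 3-week arrays (filled circles) and without replicate 2 (open diamonds), and a dashed line at the median of all genes tested (0.04); the right panel counts genes called in each direction. Slow fibre genes lie lowest at -1.29 and antigen presentation highest at 0.74, and the developmental muscle, neutrophil and tendon medians move most when replicate 2 is left out, from -0.94 to -0.38, from -0.95 to -0.31 and from 0.70 to 0.25.

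Some of the largest differences rest on 1 probe set. Rbfox2, a splicing factor of muscle and nerve, fell by 3.01 (SE 0.44, adjusted p = 0.000628) by its brightest probe set, while none of its 3 other probe sets was called. For Dact2, a regulator of Wnt and TGF-beta signals, and for AW551984, the differences of -2.89 and -2.57 were likewise not called in their 2 other probe sets each. Dact2 read 6.45, 4 and 4 at 6 weeks, at or below 0 in intensity in replicates 2 and 3. Of 72 named genes called, 39 had further probe sets. In 19 of them at least 1 more was called the same way, in none the opposite way, and in 20 none was called. Tsx, a gene next to the X-inactivation centre, fell by 3.91 (SE 0.98, adjusted p = 0.0231) from 9.20, 8.16 and 8.79 to 4, 6.02 and 4.40. Kdm6b, a histone H3 lysine 27 demethylase, fell by 2.72 (SE 0.54, adjusted p = 0.00618), and both were called without replicate 2. Ifi27l2a, an interferon-induced gene, and BC023105 rose by 2.72 and 3.12, and neither was called without it.

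Whether the later change differs from the earlier one was tested against the change from 5 days to 2 weeks in BL10, which uses other arrays. Each change is the total over its interval, and the later interval is the longer, so rates of change were not compared. The 2 changes differed in 1745 genes (11.6%), the later being above in 767 (5.11%) and below in 978 (6.52%). Values as deposited turned that split, with 63.8% above against 44% here. Without replicate 2 of 3 weeks 2233 genes differed, 1583 of them among the 1745; the values per gene that follow use all arrays. For Igf2 the early difference was -0.74 and the late one -3.33, which differ by -2.58 (SE 0.63, adjusted p = 0.0136). Myog and Myod1 had early differences of -0.25 and -0.18, and the later ones lay below these by -2.28 (SE 0.54, adjusted p = 0.0119) and -1.23 (SE 0.30, adjusted p = 0.0138). For Kcne1l the early difference was -0.93 and the later one lay -3.50 from it (SE 0.70, adjusted p = 0.004). Smox had an early difference of 0.23, and the later one lay above it by 2.34 (SE 0.53, adjusted p = 0.00849). Bdh1, Kcng4, Mup5, Mylk4, Nos1, Cd55 and C5ar1 also had later changes above the early ones. These genes, like the others given here, were picked by their late change, which is part of the difference tested.

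In other genes no difference between the changes was called. H2-Aa had an early difference of 1.64 and a late one of 2.01 (later minus earlier 0.37, adjusted p = 0.659), and Cd74 of 1.74 and 1.62 (later minus earlier -0.12, adjusted p = 0.89). For Myh7 the early difference was -1.40 and for Tnni1 -1.19, and the later ones lay below these by amounts that were not called (later minus earlier -3.28 and -2.97, adjusted p = 0.211 and 0.164). Dlk1 had an early difference of -2.60 and a late one of -2.56. The later change lay below the early one in 2 of 18 fast fibre and 8 of 31 respiratory chain genes, where it did in 6.52% of all genes. Among the fast fibre genes was Pvalb, the fast fibre calcium buffer parvalbumin, at -2.01 (adjusted p = 0.00158). Pvalb itself differed by only -0.04 between 3 and 6 weeks. Retnla and Scd1 had early differences of 3.98 and 3.66, and no difference of the later ones from these was called (adjusted p = 0.116 and 0.334).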

How the data were processed

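Total RNA of quadriceps, extracted with Trizol per the labels' protocols, was measured on 24 Affymetrix mouse arrays, and 6 of them form the comparison described. The deposited values are an intensity per probe set on a linear scale, made by the authors with PLIER, per the submitters' processing notes. Its version, background and scaling settings are not given in the sources used here.

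Here arrays were brought to a common distribution by quantile normalization, negative values were raised to 0, and log2 was taken after adding 16, which makes changes of dim genes look smaller. Of 45037 probe sets left after 64 controls, 34945 carry 1 symbol, 932 several and 9160 none, per the platform annotation; 34741 matched RefSeq's gene table (GRCm38.p6) by gene number. Each of 18193 symbols was read from its probe set of highest mean. The test covered the 15000 genes whose probe set exceeded the array's 40th percentile on 3 or more arrays.

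One limma model (3.58.1, R 4.3.3) with 8 group means was fitted to the 24 arrays, so that all groups share 1 estimate of spread (16 residual and 5.15 prior degrees of freedom, intensity trend). Tests were two-sided and adjusted by Benjamini-Hochberg over 15000 genes. Precision is limited by the number of arrays (median SE 0.225). An exact permutation test of 3 arrays against 3 cannot go below p = 0.1. Leaving an array out kept its normalization and the genes tested.

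The members, the 39 lists (748 genes, 675 matched, 656 tested) and the rules were chosen with earlier results of these data known. The rule names Dmd; the 10 highest and 10 lowest called differences whose ages do not overlap; up to 4 called genes per list, or its first 2; and the 5 highest and 5 lowest of the late minus early test. Other settings were other scalings, added constants of 1 and 64, other filters, the mean of probe sets or every probe set, no trend, array weights, fewer arrays in the fit, a replicate block, stricter calls and leaving out arrays. Leaving out replicates 1 and 2 of 3 weeks was a setting added after seeing the data. Simulated data with known shifts were used to test the fit. Promoters are RefSeq's, and 56 of 72 named called genes had one. Python 3.11.15 with matplotlib 3.10.9 drew the figures.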

Additional observations from a re-analysis of the deposited data

Results flagged for a closer look

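The change from 3 to 6 weeks lay above the change from 5 days to 2 weeks in 767 genes and below it in 978 (limma, adjusted p under 0.05 for the difference itself).

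Among the genes of widest difference above, Nmrk2, a kinase of the nicotinamide riboside route to NAD, gave 3.70 (SE 0.89). Its mean went from 8.17 at 5 days to 6.72 at 2 weeks and from 8.55 at 3 weeks to 10.80 at 6 weeks. Fgfbp1 gave 3.27 (SE 0.33), with means of 4.24, 4.13, 4.70 and 7.87 in order of age. Atf3, a stress-induced transcription factor, gave 3.26 (SE 0.72), and its 6-week arrays read 10.40, 8.06 and 8.01. Prokr1, a prokineticin receptor, gave 3.09 (SE 0.48), and Sp3, a zinc finger transcription factor, gave 3.06 (SE 0.64). In both the widest step was the early one, from 8.22 to 4.95 and from 9.70 to 7.22, and their late differences of -0.18 and 0.58 were not called. The 2-week arrays of Sp3 were spread, at 5.96, 6.80 and 8.89.

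Below, S100a9 gave -5.21 (SE 1.65), with 3-week arrays of 6.36, 10.33 and 4.61. Its 2-week arrays were also split, at 10.35, 10.38 and 6.57. The late difference of S100a9 was -2.17, and -0.56 without replicate 2 of 3 weeks, and was called in neither case. Asphd1 gave -4.70 (SE 0.51), Nobox -4.16 (SE 0.74) and Cyp4f15 -3.95 (SE 0.61). In these 3 the early difference was 4.52, 3.04 and 3.30, and the late one, not called, was -0.18, -1.12 and -0.65. The 5-day arrays of Cyp4f15 read 6.57, 4.19 and 4. Dact2 gave -4.30 (SE 0.96), with means of 5.97, 7.38, 7.71 and 4.82 in order of age. The 5-day arrays of Dact2 read 6.97, 6.94 and 4, and its 6-week arrays 6.45, 4 and 4, where 4 is the floor.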

How the results depend on the processing

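The 976 genes called between 3 and 6 weeks became 1639 with median centring, 627 with probe sets averaged per gene, 299 with the 6 arrays fitted alone (256 of them shared), and 2583 when every probe set was tested. They were 321 at 2-fold or more and 184 at an adjusted p under 0.01. Leaving out 1 array gave 206 to 875 calls, and replicate 3 of 3 weeks was the only array whose loss (875) kept the count within 1.5 times. Without replicates 1 and 2 of 3 weeks, chosen after seeing the data, 62 genes were called (55 shared) with 1 array left at 3 weeks, which is assumed to vary like the other groups. The other settings stayed within 1.5 times, including array weights (1385) and no filter (818).

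Dmd, 1.05 and not called, ranged from 0.55 to 1.61 when 1 array was left out and was called without replicate 3 of 3 weeks (1.61, adjusted p = 0.047). It was 0.23 (adjusted p = 0.735) with probe sets averaged. It reversed to -0.07 (adjusted p = 0.979) without replicates 1 and 2.

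The 1745 genes of the late minus early test became 3048 with array weights and 829 to 2233 with 1 array left out. Calls above the early change were 44% of these, 63.8% with values as deposited and 77% of 2006 with median centring.

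Of 72 named called genes, 18 kept their call in all 19 settings tried on them, among them Igf2, Myog, Myod1, Stim1, Fgfbp1, Smox, Cd55 and H2-Aa. Smad3 reversed, to -0.13, with the mean of probe sets. With each of the 39 lists counted once per setting, the median moved by less than the spread between arrays in 689 cases and by more in 52.

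Same-numbered arrays of the 2 ages correlated at 0.16, 0.09 and 0.16 in their deviations from the group means. Not all passed 0.1, so the numbers were not taken as pairing, although each array correlated best with its own number. With a replicate block 1157 genes were called (951 shared), and 1960 in the late minus early test.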

Other observations

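Genes outside the lists had some of the smallest p-values and were picked after their values were seen. Tfcp2l1, a transcription factor of epithelial ducts, rose by 2.36 (SE 0.28, adjusted p = 0.000159) between 3 and 6 weeks and by 2.27 without replicate 2 of 3 weeks. Cyp2f2, a cytochrome P450, rose by 2.32 (SE 0.28, adjusted p = 0.000159), and by 2.01 without it. Tiam1, an activator of the small GTPase Rac, rose by 1.80 (SE 0.22, adjusted p = 0.000163), and by 1.60 without it. In all 3 the later change lay above the change from 5 days to 2 weeks, by 1.96, 1.74 and 1.68. That difference contains the late change by which the 3 were picked, so it is not a separate result.

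Of the 382 genes called lower at 6 weeks, replicate 1 of 3 weeks was the highest of its age in 216 (56.5%) and replicate 2 in 97 (25.4%), where over all genes they were highest in 43.5% and 29.2%. Of the 594 called higher, replicate 1 was the lowest of its age in 242 (40.7%) and replicate 2 in 240 (40.4%), where over all genes they were lowest in 29.3% and 37.1%.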
